A study of Mus musculus with 2 samples.

Results

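Glycolysis, pyruvate oxidation and the citric acid cycle were followed as a set of enzyme transcripts in RNA of adipocyte-derived microvesicles (ADMs) and of the adipocytes that shed them. Members were all array probes whose gene name in the scanner files is that of a hexokinase, another glycolytic enzyme, a lactate dehydrogenase, pyruvate carboxylase, a pyruvate dehydrogenase subunit or kinase, or an enzyme of the citric acid cycle. The rule found 84 probes under 49 gene names, of 41174 probes under 27962 gene names on the arrays. The files used here held 0 probes under the name Gapdh, so glyceraldehyde-3-phosphate dehydrogenase is not analysed here.

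The cells were 3T3-L1, a single established mouse preadipocyte line, so no other donor or strain is represented. They were grown in high-glucose medium with 10% fetal serum and made into adipocytes with insulin (10 µg/ml), dexamethasone (0.25 µM) and 3-isobutyl-1-methylxanthine (0.5 mM), and both RNAs of a pair come from cultures treated in this way. On day 11 ADMs were pelleted from the conditioned medium by ultracentrifugation, and the donor adipocytes were harvested on the same day. Each of 2 biological replicates paired 1 ADM RNA with 1 donor cell RNA on a 2-colour Agilent array, with the ADM RNA in Cy5 in replicate 1 and in Cy3 in replicate 2. The direction of each ratio rests on the labels' dye assignment, and the RNAs are named by label as ADM-labelled or cell-labelled. Precision is limited by the number of arrays. The sources do not say whether cultures and extractions were separate, so p-values measure only the spread between these samples.

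Glycolysis splits glucose into pyruvate in the cytosol, and lactate dehydrogenase interconverts pyruvate and lactate. In mitochondria the pyruvate dehydrogenase complex turns pyruvate into acetyl-CoA, under the brake of the pyruvate dehydrogenase kinases, and pyruvate carboxylase turns it into oxaloacetate. Citrate synthase joins both products into citrate, which in fat cells is both burned in the cycle and exported to the cytosol as the carbon source of fatty acid synthesis.

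The labelled cell type was borne out in the cell-labelled RNA by 8 of 12 adipocyte markers, which were well above background there on both arrays, against 9 of 12 in the ADM-labelled RNA. Adipoq and Cfd had no usable spot in replicate 1 and Cidec none in either, while Lep was detected in the ADM-labelled RNA alone. The same count for 8 preadipocyte and fibroblast markers was 8 in the ADM-labelled and 5 in the cell-labelled RNA. Their summed net signals (spot minus local background, in scanner units) were 374286 (ADM-labelled) and 1024 (cell-labelled) in replicate 1, and 156031 and 4542 in replicate 2. Those of the adipocyte markers were 1078390 and 9554, and 1122580 and 77621, in the same order. The adipocyte sums do not cover the same probes on both arrays and cannot be compared between them. Single probes of Cfd, Adipoq, Lpl and Fabp4 had no value in replicate 1. In replicate 2 they added 252196, 225971, 160557 and 16957 units to the ADM-labelled sum. Macrophage and leukocyte markers were not well above background in either RNA (0 of 6 in each), nor were hepatocyte markers (0 of 3 in each), and skeletal muscle markers counted 1 of 6 and 0 of 6. Testis markers counted 1 of 6 in each RNA and erythroid markers 1 and 2 of 3. The part of fibroblast-like cells in the results below was not tested.

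Every enzyme probe that could be tested gave more signal in the ADM-labelled RNA. A probe was tested where it had a value on both arrays and was well above background in 1 of the RNAs on both, which held for 52 of the 84 probes (61.9%) and 36 of the 49 genes, against 44.0% of all probes. The ADM-labelled RNA met this detection rule for all 52, and the cell-labelled RNA for 39 of them. Over all 18117 tested probes these counts were 17246 and 8790. The other members were tested through the ADM-labelled side only, which favours a higher signal there. Their direction is therefore not independent of the rule. All 52, and so also the 39, had a net signal that was higher on the ADM-labelled side on both arrays, as had 89.9% of all tested probes. The net signal ratio of these 52 ran from 4.24 to 280 with a median of 90.2 in replicate 1, and from 1.06 to 38.1 with a median of 13.7 in replicate 2. The medians over all tested probes were 38.8 and 7.64. These ratios hold the gain of each dye channel and are not amounts per RNA, and in such mixed RNAs fewer vesicles or cells of a kind and less RNA per vesicle or cell cannot be told apart.

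**Figure D1:**
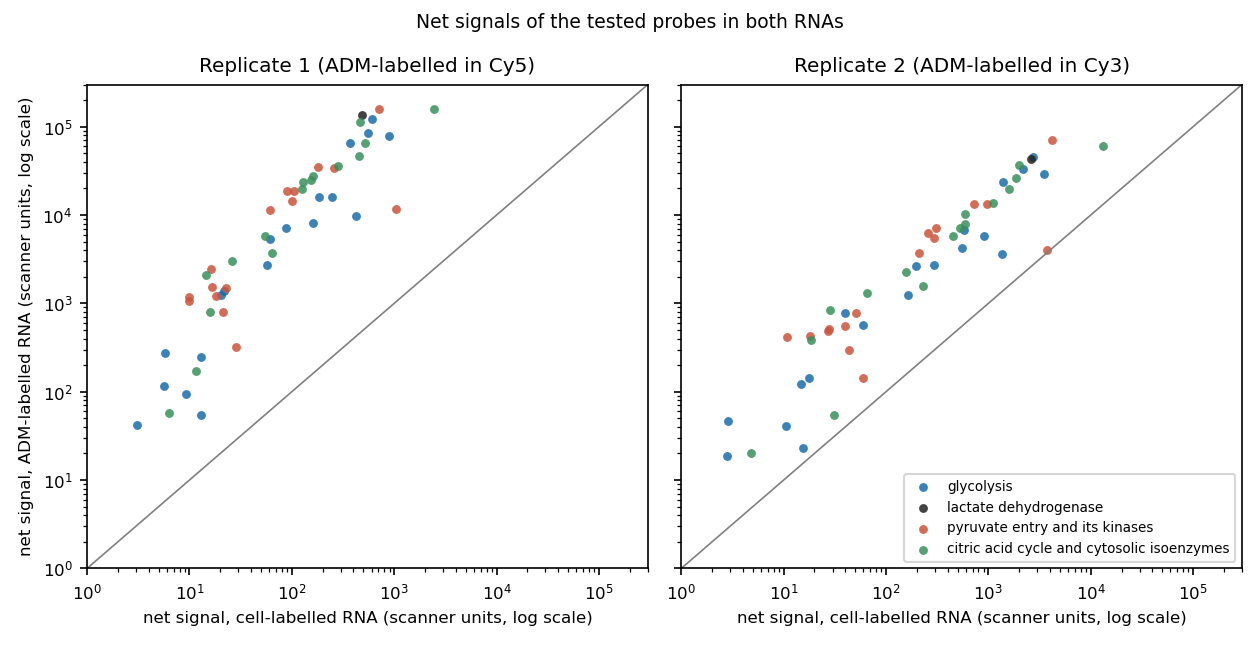
Net signal (scanner units, log scales) of the 52 tested probes in the cell-labelled RNA (x axis) and the ADM-labelled RNA (y axis), 1 panel per replicate, 1 point per probe, coloured by role, with the line of equal signal. All points lie above the line in both panels, and 1 Pdhx probe in replicate 2, at 3756 and 3993, lies nearest to it.

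The channels were therefore compared after loess normalization, which sets each probe against probes of similar brightness, and ratios below are log2 values on that scale, ADM-labelled over cell-labelled. On this scale single genes stood out on both sides. Loess by its construction takes out the typical ratio at each brightness. Members were not compared with a set of probes matched for brightness, and the shares of all tested probes given here are not matched either. The tested members were brighter than most probes. Their median net signal in the ADM-labelled RNA was 7557.5 in replicate 1 and 3202 in replicate 2, against 545 and 208 over all tested probes. Of the 52 tested probes, 8 were higher in the ADM-labelled RNA (15.4%, against a background of 5.54% of all tested probes) and 5 lower (9.62%, against 10.9%) in limma's moderated test, at a threshold of 0.05 on p-values adjusted by Benjamini-Hochberg. The 8 higher probes belonged to 6 genes (Dld, Pdha1, Pdhb, Pdk1, Idh1 and Idh3b) and the 5 lower ones to 5 genes (Pdhx, Pfkm, Cs, Pdk2 and Hk2). The median log2 ratio was 0.23 over the 52 probes and 0.07 over all tested probes. Both arrays gave one sign in 43 of the 52 (82.7%), against 81.0% of all tested probes.

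The split of calls depended on how the channels were set against each other. With median centring, which removes no trend with brightness, the calls were 43 higher and 0 lower, where 0 lower probes also had an unadjusted p under 0.05, and the median of all tested probes moved from 0.07 to 2.04. With the scanner's own processed signals the calls were 21 higher and 3 lower, at a median of all tested probes of 0.69. The members' median lay 0.16, 1.82 and 0.19 above that of all tested probes under loess, median centring and the processed signals. When spots with an outlying local background were kept, limma called 0 of 19807 probes, of which 156 had an unadjusted p under 0.05, so each call below ends in that setting.

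**Figure D2:**
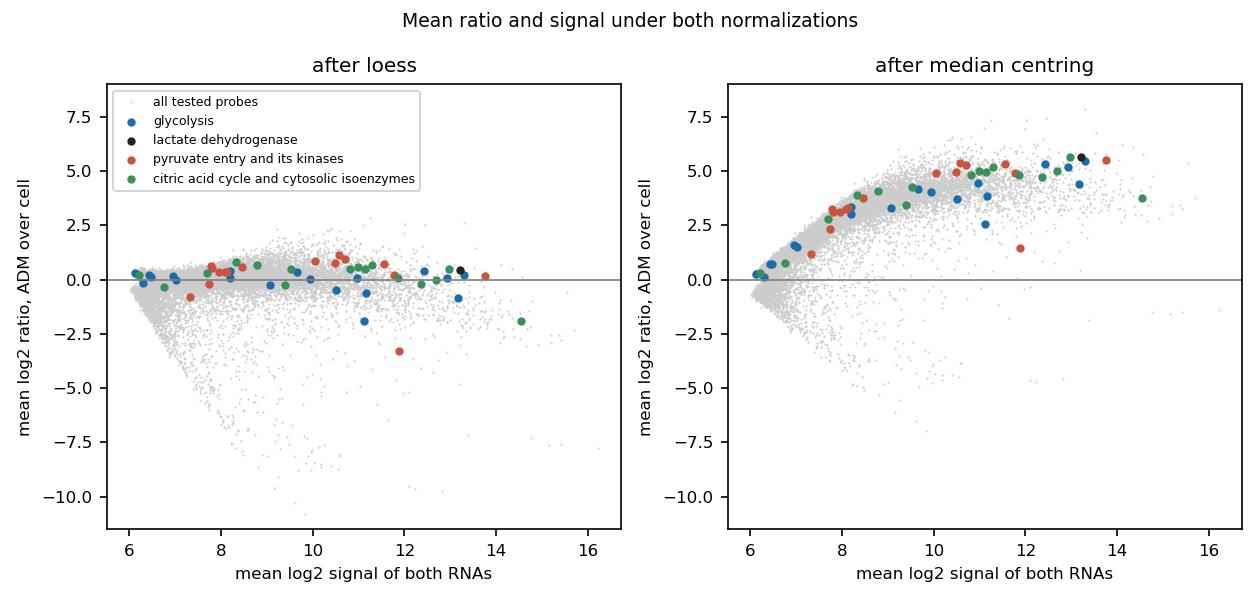
Mean log2 ratio of ADM-labelled over cell-labelled RNA (y axis) against the mean log2 signal of both RNAs (x axis), after loess (left) and after median centring (right), for all 18117 tested probes (grey) and the 52 member probes (coloured by role). With median centring all 52 ratios are positive, while after loess they run from -3.30 to 1.12.

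The pyruvate dehydrogenase complex held most of the higher calls. Of 16 tested probes of pyruvate entry and its kinases, 6 were higher and 2 lower, while 16.4% of all tested probes were called in either direction. Dld encodes the dihydrolipoamide dehydrogenase subunit (E3), which the complex shares with oxoglutarate dehydrogenase and branched-chain ketoacid dehydrogenase. Its brightest probe, on chromosome 12 from 29172434 to 29172495 on the minus strand (mouse build mm7), gave net signals of 18546 (ADM-labelled) and 106 (cell-labelled) in replicate 1, and 7146 and 308 in replicate 2. The log2 ratio of this probe was 0.98 ± 0.26 (SD, n = 2; limma adjusted p = 0.0299), and a neighbouring probe gave 1.12 ± 0.16 (adjusted p = 0.0201), a 2.17-fold difference and the highest ratio of all members. The third Dld probe lay further upstream, with coordinates that span 4754 bases in place of 60, and gave 0.65 ± 0.31 (limma adjusted p = 0.0656). That probe was not well above background in the cell-labelled RNA, so its cell-labelled level is only a bound. The bound on its difference was 1.57-fold as a mean of both arrays, whose log2 ratios were 0.43 and 0.86. It is an estimate without a confidence limit, and not a minimum that each array keeps. For such bounds the ADM-labelled level was set against the probe's own cell-labelled level or, where that was lower, the lowest level detected there, and for this Dld probe the bound equals the fitted ratio. All Dld probes lay on the ADM-labelled side on both arrays.

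The catalytic first subunit (E1) of the complex went the same way. Pdha1 encodes its alpha chain, which carries the sites that the kinases phosphorylate, and lies on the X chromosome. Its brightest probe gave net signals of 14258 (ADM-labelled) and 99.3 (cell-labelled) in replicate 1, and 5560 and 295 in replicate 2. The log2 ratio was 0.75 ± 0.20 (SD, n = 2; limma adjusted p = 0.0386), and the second Pdha1 probe gave 0.87 ± 0.11 (adjusted p = 0.0263), so both arrays and both probes lay on the ADM-labelled side. The call of the brightest Pdha1 probe was lost with the processed signals (adjusted p = 0.0582 in limma) and with plain background subtraction (0.0909), and that of the brightest Dld probe with plain subtraction (0.0652). Pdhb encodes the beta chain, and its probes gave 0.72 ± 0.09 (adjusted p = 0.0328 in limma) and, for the slightly brighter one, 0.23 ± 0.19 (adjusted p = 0.267). The second of these carries coordinates that span 291 bases of the genome in place of 60, as a probe across a splice junction would. Dlat, the acetyltransferase core (E2), had 0.36 ± 0.06 (limma adjusted p = 0.107) from 1523 and 16.6 net units in replicate 1 and 561 and 39.4 in replicate 2. A second Dlat probe had a value in replicate 1 only, at 1.03.

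Pdha1, Pdhb and Dld each had a probe that passed on the ADM-labelled side, although the brightest Pdhb probe did not. The 250 bases before their transcription starts are shown beside those of Hk2, the hexokinase that passed on the other side, from RefSeq (build GRCm38.p6). Capitals mark 4 motifs searched on both strands: the E-box CACGTG, the core ACGTG of hypoxia response elements, which the E-box contains, the oestrogen-related receptor half-site AAGGTCA, and the CCAAT box CCAAT. A match on the other strand reads CACGT for the core, or ATTGG for the box.
Pdha1: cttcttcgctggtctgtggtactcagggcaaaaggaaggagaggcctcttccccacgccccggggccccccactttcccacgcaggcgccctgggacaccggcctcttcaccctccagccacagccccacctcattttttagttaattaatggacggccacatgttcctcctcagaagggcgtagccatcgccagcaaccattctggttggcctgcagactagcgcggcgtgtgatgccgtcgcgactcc
Pdhb: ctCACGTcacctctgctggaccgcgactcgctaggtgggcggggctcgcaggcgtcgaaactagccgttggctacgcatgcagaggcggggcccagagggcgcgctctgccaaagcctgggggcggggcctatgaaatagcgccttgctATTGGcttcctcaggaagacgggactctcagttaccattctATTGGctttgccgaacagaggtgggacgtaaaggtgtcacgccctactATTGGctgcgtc
Dld: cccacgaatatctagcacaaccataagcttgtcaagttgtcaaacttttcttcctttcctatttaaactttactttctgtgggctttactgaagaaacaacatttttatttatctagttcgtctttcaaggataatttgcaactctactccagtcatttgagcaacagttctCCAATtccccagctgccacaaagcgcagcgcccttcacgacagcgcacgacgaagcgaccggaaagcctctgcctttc
Hk2: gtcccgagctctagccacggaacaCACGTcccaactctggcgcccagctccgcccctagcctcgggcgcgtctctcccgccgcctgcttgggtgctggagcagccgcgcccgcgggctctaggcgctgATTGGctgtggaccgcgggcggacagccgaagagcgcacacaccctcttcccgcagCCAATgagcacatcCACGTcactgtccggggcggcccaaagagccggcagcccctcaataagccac
These windows lie on the minus strand at chrX:160138431-160138680, chr14:8172993-8173242, chr12:31351472-31351721 and chr6:82774455-82774704, in that order. The Pdha1 window held 0 of these letter strings, the Dld window 1 CCAAT box, the Pdhb window 1 ACGTG and 3 CCAAT boxes, and the Hk2 window 2 ACGTG and 2 CCAAT boxes. RefSeq promoters were found for 46 of the 49 member genes, 68 windows in all. Some genes have several windows, and those of Ogdh and Aldoa partly overlap, so 1 motif copy can count in more than 1 window. Every Ogdh window held ACGTG. The core ACGTG stood in 22 of these 68 (32.4%), against 16.6% of 32851 windows of all genes, and the CCAAT box in 29 (42.6%, against 33.8%). The E-box stood in 7 (10.3%, against 6.02%) and AAGGTCA in 1 (1.47%, against 4.08%). Member windows also held more CG dinucleotides, a median of 14 against 6, and ACGTG contains one, so these shares are a description of letters and not of sites.

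Probes of Pdhx pointed in opposite directions. Pdhx encodes the E3-binding protein that anchors Dld to the complex. Its brightest probe, on chromosome 2 from 102872637 to 102872696 (mm7, minus strand), gave net signals of 11822 (ADM-labelled) and 1038 (cell-labelled) in replicate 1, and 3993 and 3756 in replicate 2. Its log2 ratio was -3.30 ± 0.05 (SD, n = 2; limma adjusted p = 0.00196), the lowest of all members, and -3.07 with the processed signals. With median centring the same value was 1.44, so its sign turned with the scaling, and its percentile among all tested probes moved from 1.58 to 39.2. The other probe, nearer the transcript's end and within 509 bases of the first, gave 1066 and 9.86 in replicate 1 and 430 and 17.9 in replicate 2, a ratio of 0.54 ± 0.21 (limma adjusted p = 0.0707). Pdhx was the only member gene whose tested probes differed by more than 2 on the log2 scale (by 3.83), and the -3.30 is therefore a value of that probe.

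The kinases that switch the complex off were divided. Pdk1, the kinase induced by hypoxia, gave 2461 and 16.3 in replicate 1 and 785 and 50.8 in replicate 2 at its brightest probe. Its ratio was 0.57 ± 0.08 (SD, n = 2; limma adjusted p = 0.0475), and its other probe had 0.34 ± 0.29 (adjusted p = 0.194). This call was marginal, and was lost with 1 probe per gene (adjusted p = 0.0502), an offset of 10 (0.0512), plain background subtraction (0.110) and a robust variance. Pdk2, the widely expressed kinase, gave 317 and 28.2 in replicate 1 and 142 and 59.0 in replicate 2, and its ratio was -0.79 ± 0.21 (limma adjusted p = 0.0360). With median centring Pdk2 turned to 1.18, at the 34.0th percentile of tested probes. Pdk3 had 0.35 ± 0.33 (limma adjusted p = 0.211). Pdk4, which fasting and glucocorticoids induce, had -0.18 ± 0.03 (adjusted p = 0.304 in limma) from 794 and 21.3 net units in replicate 1 and 293 and 43.9 in replicate 2. Both arrays lay below 0 for Pdk2 and Pdk4 and above 0 for Pdk1 and Pdk3. Pcx, pyruvate carboxylase, which fat cells use to refill the cycle and to carry citrate out of mitochondria, gave 157544 and 713 in replicate 1 and 70523 and 4223 in replicate 2. Its ratio was 0.15 ± 0.31 (limma adjusted p = 0.514), with opposite signs on the arrays.

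**Figure D3:**
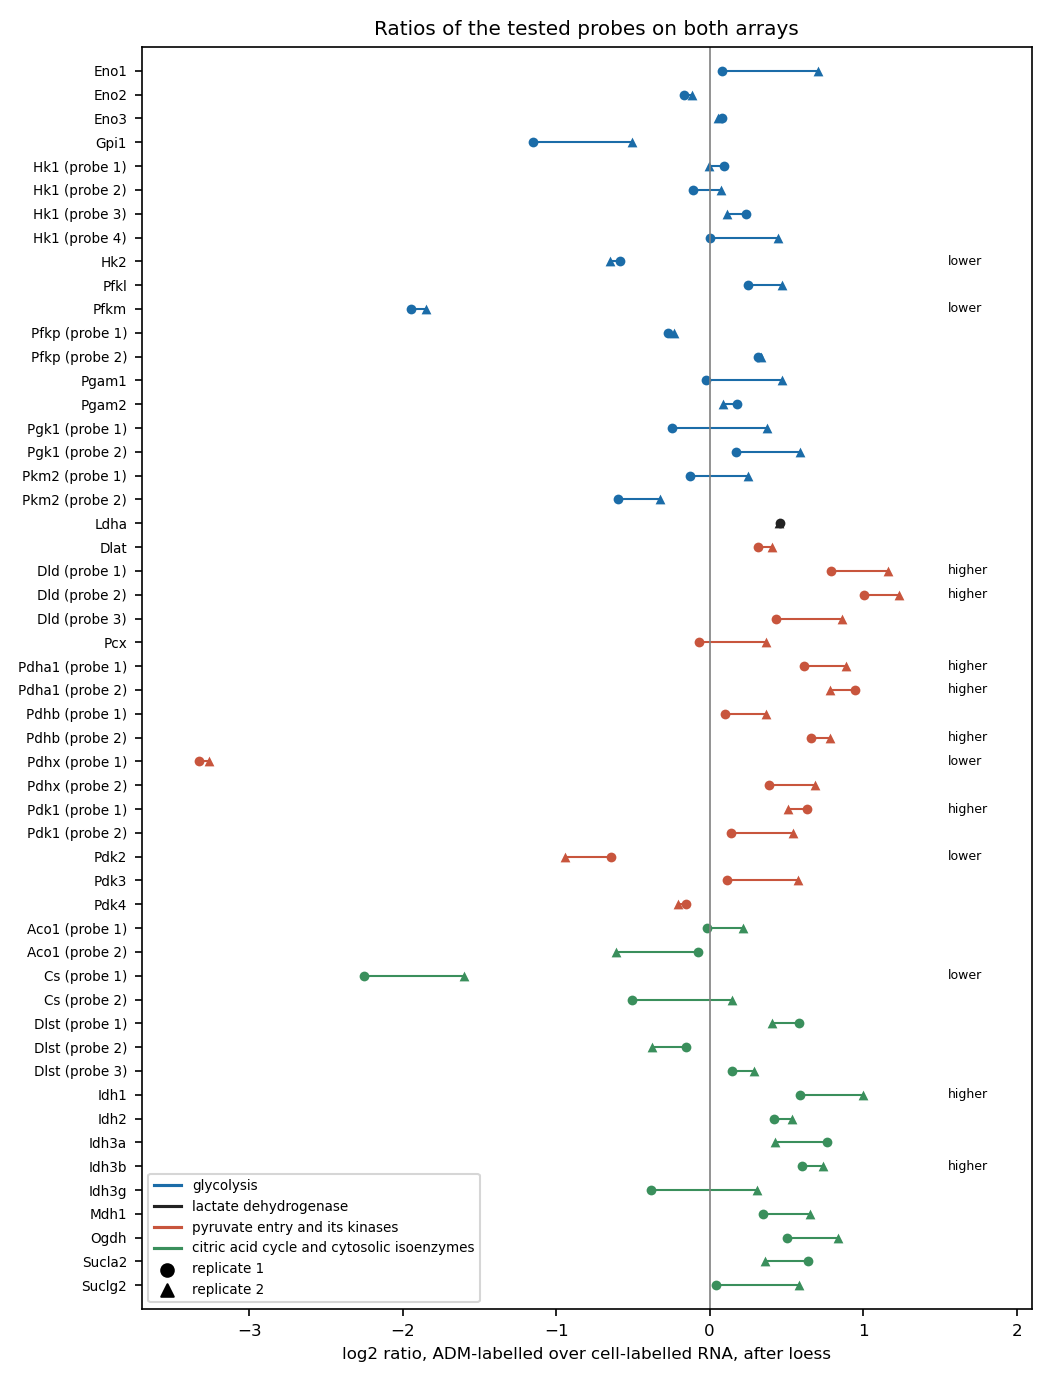
Log2 ratio of ADM-labelled over cell-labelled RNA after loess for each of the 52 tested probes, in replicate 1 (circle) and replicate 2 (triangle), coloured by role, with the word higher or lower beside probes past the limma threshold and probes of a gene numbered from the brightest. The probes marked higher belong to Dld, Pdha1, Pdhb, Pdk1, Idh1 and Idh3b, though not every probe of Dld, Pdhb and Pdk1 is marked. All 5 marked lower (Pdhx, Pfkm, Cs, Pdk2 and Hk2) are positive with median centring.

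Glycolytic enzymes gave 0 higher and 2 lower calls among 19 tested probes of 13 genes, with a median ratio of 0.07, where 5.54% of all tested probes were higher and 10.9% lower. In limma, 2 of the 19 had an unadjusted p under 0.05 on the higher and 4 on the lower side. Hk2, the insulin-regulated hexokinase of fat and muscle, gave net signals of 16144 (ADM-labelled) and 249 (cell-labelled) in replicate 1, and 5724 and 909 in replicate 2. Its ratio was -0.62 ± 0.05 (SD, n = 2; limma adjusted p = 0.0409), turning to 3.84 with median centring. This call did not pass with the processed signals (adjusted p = 0.145), an offset of 10 (0.0762) or plain background subtraction (0.164). Hk1, the housekeeping hexokinase, had 6 probes, of which 4 were tested with ratios from -0.02 to 0.22, and none of them passed (limma adjusted p from 0.334 to 0.926). The brightest of these Hk1 probes lay nearest the transcript's end, and both untested ones lay furthest upstream.

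Phosphofructokinase, the committed step, was represented by its 3 subunits, of which Pfkm passed the test. Pfkm, the muscle-type subunit, gave 9656 and 421 in replicate 1 and 3662 and 1371 in replicate 2. Its ratio was -1.90 ± 0.07 (SD, n = 2; limma adjusted p = 0.00661), 3.72-fold on the cell-labelled side on the loess scale, and -1.91 with the processed signals. With median centring Pfkm stood at 2.55, the 59.3rd percentile of tested probes. Pfkl, the liver-type subunit, gave 5390 and 61.0 in replicate 1 and 2678 and 197 in replicate 2, a ratio of 0.36 ± 0.16 (limma adjusted p = 0.127). Pfkp, the platelet-type subunit, had -0.25 ± 0.03 (adjusted p = 0.187 in limma) at its brightest probe. A dim Pfkp probe, detected in the ADM-labelled RNA alone, gave 0.33 ± 0.02 (limma adjusted p = 0.123). The bound on its difference was 1.15-fold as a mean of both arrays, again an estimate and not a minimum. Both arrays lay below 0 for Pfkm and above 0 for Pfkl, and the difference between the subunits was not tested.

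The remaining glycolytic steps did not pass the test. Gpi1, which isomerises glucose 6-phosphate, had 10 spots per array and gave 77829 and 881 in replicate 1 and 29170 and 3467 in replicate 2, a ratio of -0.83 ± 0.46 (SD, n = 2; limma adjusted p = 0.0656). Pgk1, the first ATP-forming step, also had 10 spots and gave 0.07 ± 0.44 (adjusted p = 0.817 in limma), and its second probe 0.38 ± 0.29. Pgam1, the ubiquitous phosphoglycerate mutase, had 0.22 ± 0.35 (limma adjusted p = 0.383) and its muscle counterpart Pgam2 0.13 ± 0.06, where Pgam2 had a detectable signal in the ADM-labelled RNA alone. Of the enolases, the ubiquitous Eno1 had 0.39 ± 0.45, the neuronal Eno2 -0.14 ± 0.04 and the muscle Eno3 0.07 ± 0.02 (limma adjusted p from 0.230 to 0.670). Pkm2, the files' name for the pyruvate kinase gene Pkm, gave 16041 and 185 in replicate 1 and 6841 and 574 in replicate 2 at its brightest probe. Its ratios were 0.06 ± 0.27 (limma adjusted p = 0.786) and -0.46 ± 0.19 (adjusted p = 0.0880), and which splice forms the Pkm2 probes measure was not tested. Several of these enzymes have processed pseudogenes, and cross-hybridisation to them was not tested.

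Ldha, which favours making lactate from pyruvate, gave net signals of 134400 (ADM-labelled) and 480 (cell-labelled) in replicate 1, and 43163 and 2603 in replicate 2. The ratio of net signals was 280 in replicate 1, the highest of the members on that array, and 16.6 in replicate 2. On the loess scale Ldha stood at 0.46 and 0.45 on the arrays, a mean of 0.45 ± 0.0043 (SD, n = 2), the closest replicate agreement among tested members, yet the moderated test did not pass (limma adjusted p = 0.0666). It passed with an offset of 10 (adjusted p = 0.0366), the processed signals (0.0453), scaling between arrays (0.0410) and median centring.

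Among enzymes of the citric acid cycle and their cytosolic isoenzymes, 2 of 16 tested probes were higher (Idh3b and the cytosolic Idh1) and 1 lower, with a median ratio of 0.39. Of all tested probes 5.54% were higher and 10.9% lower. Cs, citrate synthase, was the lower one. Its brightest probe gave net signals of 160249 (ADM-labelled) and 2433 (cell-labelled) in replicate 1, and 59901 and 13233 in replicate 2, with a ratio of -1.93 ± 0.46 (SD, n = 2; limma adjusted p = 0.0183). The other Cs probe, 1345 bases away at most in mm7, gave 46378 and 450 in replicate 1 and 19844 and 1606 in replicate 2, with -0.18 ± 0.46 (adjusted p = 0.541 in limma) and opposite signs on the arrays. The lower call thus belonged to a single probe, and it was lost with the processed signals (-0.36, adjusted p = 0.310), plain background subtraction (-0.71, 0.139) and a variance trend (0.212). With median centring the Cs values were 3.77 and 4.73.

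Isocitrate dehydrogenases lay mostly on the ADM-labelled side. Idh3b, a regulatory subunit of the NAD-dependent enzyme of the cycle, gave 27609 and 162 in replicate 1 and 10177 and 588 in replicate 2, with a ratio of 0.67 ± 0.10 (SD, n = 2; limma adjusted p = 0.0374). The Idh3b call was lost with the processed signals (adjusted p = 0.0591) and with plain background subtraction (0.0840). The catalytic subunit Idh3a had 0.59 ± 0.24 (adjusted p = 0.0639 in limma) and the regulatory Idh3g -0.04 ± 0.49 (adjusted p = 0.913), with opposite signs on the arrays. Idh1, the cytosolic NADP-dependent enzyme that supplies NADPH, gave 2107 and 14.4 in replicate 1 and 837 and 28.7 in replicate 2. Its ratio was 0.79 ± 0.29 (limma adjusted p = 0.0452), and its cell-labelled signal was well above background in replicate 2 alone. The Idh1 probe was thus tested only through the ADM-labelled RNA, the side on which it was called higher. The Idh1 call was lost with plain background subtraction (adjusted p = 0.0571). The mitochondrial Idh2 had 0.48 ± 0.08 (adjusted p = 0.0654 in limma). All isocitrate dehydrogenase values other than that of Idh3g were above 0 on both arrays.

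By brightest probe, the remaining tested enzymes of the cycle and its cytosolic isoenzymes had ratios above 0 that did not pass. Ogdh, the first subunit of oxoglutarate dehydrogenase, had 0.67 ± 0.23 (SD, n = 2; limma adjusted p = 0.0504), and 3033 and 25.9 net units in replicate 1 and 1296 and 64.6 in replicate 2. It passed with no filter (0.0493), with a trended variance (0.0249), with scaling between arrays (0.0221), with an offset of 10 (0.0428), with median centring and with the processed signals (0.0292). Dlst, its succinyltransferase core, had 0.49 ± 0.13 at the brightest probe (limma adjusted p = 0.0660) and -0.26 ± 0.16 and 0.22 ± 0.10 at the others. Sucla2 (0.50 ± 0.20) and Suclg2 (0.31 ± 0.38) are the beta subunits of the ATP-forming and GTP-forming succinyl-CoA synthetases. Mdh1, the cytosolic malate dehydrogenase, had 0.50 ± 0.22 (limma adjusted p = 0.0813), and Aco1, the cytosolic aconitase that doubles as an iron sensor, 0.10 ± 0.16 (adjusted p = 0.581), with -0.34 ± 0.37 at its dimmer probe.

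The untested probes included some of the brightest enzymes. In all, 17 of the 84 probes (20.2%, against 7.77% of all probes) lacked a value on 1 array or both, each because the scanner had flagged its local background as an outlier, and none because of a flag on the spot. This left 7 genes with a value in replicate 2 alone, most of them with strong signals. Aldoa, the main aldolase of muscle and fat, gave 161391 in the ADM-labelled and 25112 in the cell-labelled RNA there, a log2 ratio of -1.25. Mdh2, the mitochondrial malate dehydrogenase, gave 169786 and 15888 (-0.48). Fh1, fumarase, had 1.00, triosephosphate isomerase Tpi1 0.45, the succinyl-CoA synthetase alpha subunit Suclg1 0.39 and Ldhb, the heart-type lactate dehydrogenase, 0.27. With the flagged backgrounds kept, where ratios differ on account of both the background and the fit, Aldoa had -3.33, Mdh2 -1.74 and Fh1 0.54 as means of both arrays. Suclg1 had 0.16, Tpi1 -0.00618 and Ldhb -0.19 there, so that Aldoa and Mdh2 were below 0 and Fh1 and Suclg1 above 0 in both settings, while Ldhb and Tpi1 changed sign. These values have no test.

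Of the member genes, 6 were too dim to be tested. Among them, the brain aldolase Aldoc, the testis forms Ldhc and Pdha2, the liver and red cell pyruvate kinase Pklr and the leukocyte-enriched hexokinase Hk3 failed to rise well above background on both arrays in either RNA. Hk3 (31.6 net units) and Pklr (14.2) were well above background in the cell-labelled RNA of replicate 2 alone. Of 73 probes on RefSeq accessions 47 were tested, and of 11 on other accessions 5. The dim ones among these 11 included probes of Mdh1, Sucla2 and Gpi1, genes whose RefSeq probes were bright. In all, 10 probes span more than 100 bases in mm7, as probes across a splice junction would, and the 5 of them that were tested (Eno1, Pfkp, Pgam2, Dld and Pdhb) had ratios from -0.25 to 0.65, none past the threshold.

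Where a gene had several tested probes, their ratios agreed only loosely. Of 12 such genes, 10 had probes within 1 of each other on the log2 scale, and the exceptions were Pdhx and Cs. A range of 1 is wide beside most ratios here. Probe means had opposite signs for Aco1, Dlst, Hk1, Pfkp, Pkm2 and Pdhx. They were all above 0 for Dld, Pdha1, Pdhb, Pdk1 and Pgk1, and all below 0 for Cs. The arrays agreed over the 52 tested probes with a Pearson correlation of 0.928 and a Spearman correlation of 0.806, a description across probes that share 2 arrays. Replicate 2 gave the higher ratio in 37 of the 52, and the median was 0.11 in replicate 1 and 0.37 in replicate 2.

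Genes that feed or regulate these pathways were taken from a list of 66 names, of which 57 were on the arrays and 46 had a tested probe. Judged by the brightest tested probe, 8 genes were higher and 2 lower, and the remaining 36 missed the threshold. Of all tested probes 5.54% were higher and 10.9% lower. The median was 0.26. The higher ones included enzymes that make and break fructose 2,6-bisphosphate, the strongest activator of phosphofructokinase. Pfkfb1 gave 9764 and 38.6 in replicate 1 and 3557 and 109 in replicate 2, a ratio of 1.38 ± 0.20 (SD, n = 2; limma adjusted p = 0.0157). Pfkfb3, the form with the highest kinase activity, had 1.35 ± 0.43 (adjusted p = 0.0277 in limma) and Pfkfb4 0.68 ± 0.06 (adjusted p = 0.0347), while Pfkfb2 had 0.25 ± 0.11 (adjusted p = 0.205). Both dimmer Pfkfb3 probes gave -0.06 and 0.12, so its value holds for the brightest.

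Of succinate dehydrogenase, the enzyme of the cycle that also belongs to the respiratory chain, the flavoprotein subunit Sdha was higher at both tested probes, 1.43 ± 0.20 and 1.05 ± 0.01 (SD, n = 2; limma adjusted p = 0.0146 and 0.0183). Its partners Sdhb (0.49 ± 0.01) and Sdhc (0.46 ± 0.07) did not pass (adjusted p = 0.0585 and 0.0665 in limma). The glucose transporters Slc2a4 (1.39 ± 0.21) and Slc2a1 (0.85 ± 0.12) were higher, as was the citrate synthase-like gene Csl (0.78 ± 0.20). Gpd1, which links glycolysis to glycerol 3-phosphate, was higher at its only tested probe (0.61 ± 0.11). A brighter Gpd1 probe had a value in replicate 2 alone, -0.25 from 202904 (ADM-labelled) and 15994 (cell-labelled) net units. With flagged backgrounds kept it had -1.62 as a mean of both arrays, so the Gpd1 call is that of the dimmer probe. The lower ones were Slc25a10, the mitochondrial dicarboxylate carrier, at -2.19 ± 0.61 (limma adjusted p = 0.0204) and the glucose-6-phosphatase gene G6pc at -1.20 ± 0.20 (adjusted p = 0.0197). With median centring Slc25a10 stood at 3.12 and G6pc at -0.36. In net signal G6pc gave 64.9 and 36.1 in replicate 1 and 22.1 and 55.1 in replicate 2, the only tested gene of this list whose cell-labelled signal exceeded the ADM-labelled one on an array. Acly, which cleaves exported citrate, had 0.31 ± 0.08 (adjusted p = 0.142 in limma), and the hypoxia factor Hif1a 0.02 ± 0.10 (adjusted p = 0.926).

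**Figure D4:**
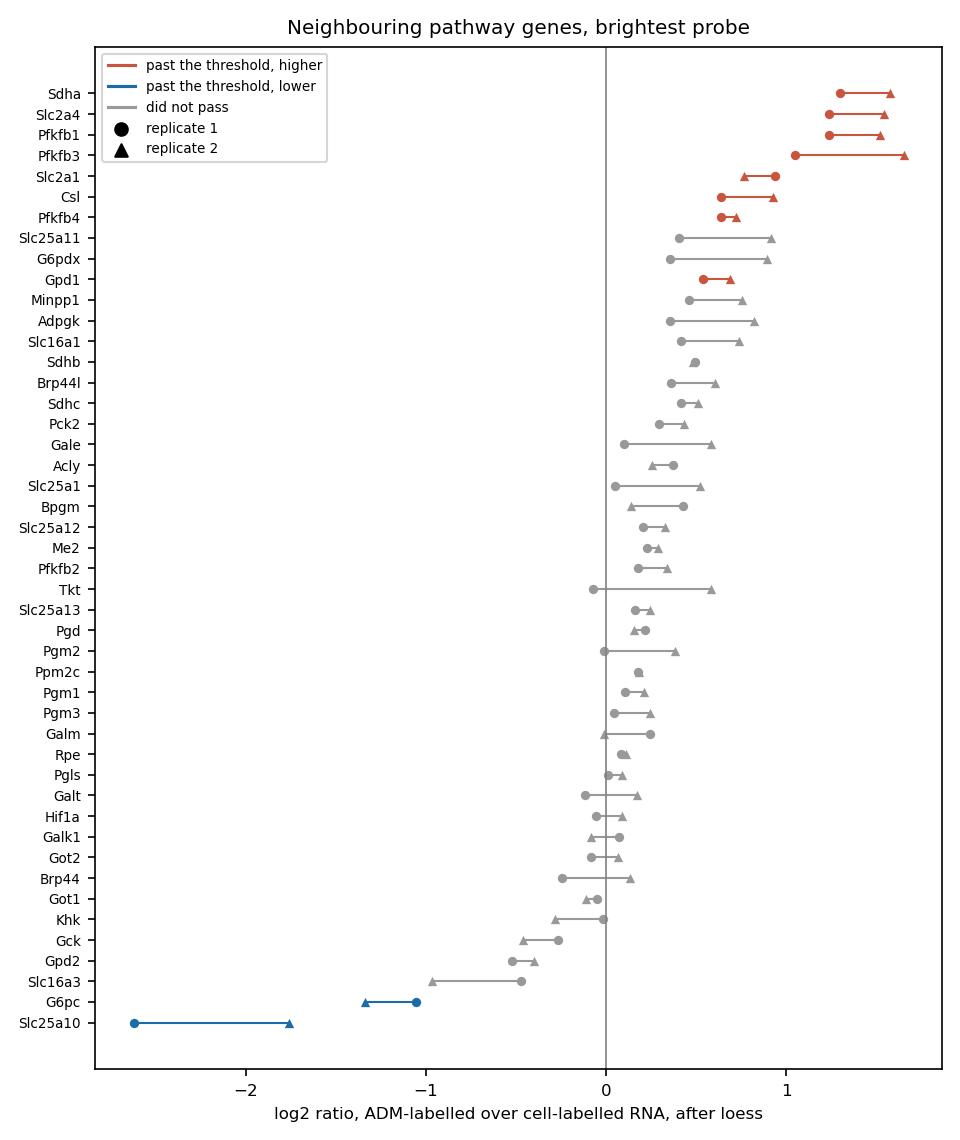
Log2 ratio of ADM-labelled over cell-labelled RNA after loess (x axis) for the brightest tested probe of 46 neighbouring pathway genes, in replicate 1 (circle) and replicate 2 (triangle), ordered by mean and coloured by the limma call. Sdha, Slc2a4, Pfkfb1 and Pfkfb3 lie furthest to the ADM-labelled side, and Slc25a10, which is positive with median centring, and G6pc furthest to the other.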

How the data were processed

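Each array's mean spot intensity and median local background intensity were deposited as scanned, per the file headers, by Feature Extraction 10.5.1.1 (annotation build mm7). That software had also subtracted background, removed spatial trends and normalized the dyes, per the file headers, to give processed signals and a log10 ratio (Cy5 against Cy3). The authors' deposited series table held the same log10 ratio turned to ADM over cell, within 5e-06. Other deposited columns used were flags.

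Spots with an outlying local background were left out, then normexp (offset 50) and loess with control spots at weight 0 were applied, array 2 was turned, and spots of a probe were averaged. Detection needed the well-above-background flag on 50% or more of a probe's spots. The mean ratio of 18117 probes was tested against 0 with limma 3.58.1 in R 4.3.3 (1 residual and 2.92 prior degrees of freedom), tested on simulated data beforehand. A ± value is the SD of 2 arrays, which the labels call biological replicates.

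Members, lists and the treatment of local backgrounds were chosen with earlier results of these data known. Every member gene with a tested probe is named by its brightest probe. Values of 2 members without a tested probe are not reported here. Net signals in each RNA are given for the 8 highest and 8 lowest calls, for genes whose probes differ by more than 2 (log2) and for a list of enzymes by role, and those of other members were added after their values were seen.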

Additional observations from a re-analysis of the deposited data

How the results depend on the processing

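Calls rest on 2 arrays and on the spread between dye orientations. Of the 52 tested probes, 8 were called higher, and this count was 43 with median centring, 21 with the processed signals, 16 with an offset of 10, 15 with scaling between arrays, 4 with the brightest probe per gene, 1 with plain background subtraction and 0 with outlying local backgrounds kept (limma, 67 member probes, 0 at an unadjusted p under 0.05). The 5 lower calls became 3 with the processed signals, 3 with plain subtraction, 0 with median centring and 0 with outlying backgrounds kept (4 at an unadjusted p under 0.05). The members' median of 0.23 was 3.87 with median centring, 0.88 with the processed signals, 0.65 with plain subtraction, 0.48 with an offset of 10 and 0.038 with backgrounds kept, and it ran from 0.11 to 0.37 with 1 replicate left out.

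With median centring, where all tested probes had a median of 2.04, the sign turned for Cs (3.77), Idh3g (5.004), Gpi1 (4.40), Hk2 (3.84), Pfkm (2.55), Pfkp (3.29), Pdhx (1.44), Pdk2 (1.18) and Pdk4 (2.35). There the prior degrees of freedom were infinite, so its limma p-values do not reflect a probe's own spread. In no other setting did a called probe change sign, but some probes that were not called did. With the processed signals the brightest probes of Idh3g (0.62), Pdk4 (0.29) and Gpi1 (0.05) turned to above 0. With outlying backgrounds kept, those of Pcx (-0.30), Pgam1 (-0.06), Pgk1 (-0.01), Pfkp (0.03) and Idh3g (0.01) turned. The cause of the differences was not tested. The filter settings, a trended variance and a robust one kept every count within 1.5 times. No paired analysis was possible because each array is already a pair, and leaving out 1 array leaves no degree of freedom for a test. Signal over background in the cell-labelled RNA limits the dim probes.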
